A study of Homo sapiens with 6 samples.

Results

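With a synthetic mimic of miR-151a-3p, 124 genes stood lower than on any of the other 5 arrays of the series, by a log2 difference of at least 0.4. They were selected on the measured values themselves, among 17709 probe sets that carry 1 gene symbol. The array of miR-151a-3p had to lie 0.4 or more below the lowest of the other 5 arrays, those 5 arrays all had to be at 6 or more, and their range, highest minus lowest, could be at most 0.75. In all, 9063 probe sets met the conditions on level and range, and 124 of them (1.37%) also met the one on the gap. The gap is used below for the distance between the miR-151a-3p array and the lowest of the others. A gap of 0.4 is a signal 1.32 times lower.

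The cells were THP-1, an established human line from a monocytic leukaemia, made macrophage-like with the phorbol ester PMA (100 ng/ml for 2 days). They were then transfected for 24 h with mimic NC, the negative control, or with a mimic of miR-151a-3p, miR-146a-5p, let-7e-5p, miR-130a-3p or let-7d-3p. All 6 groups therefore share PMA, the transfection reagent and the presence of a short RNA duplex, and no array of cells without a duplex was analysed here. Affymetrix Human Clariom S arrays were used, and the values are log2 signals in which a difference of 1 is a doubling.

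Each group held 1 array. No gene has a replicate error, no difference was tested, and what belongs to the mimic cannot be told apart from what belongs to that single culture or array. Because the members were chosen for their low values, those values are a description and lend no support to a count or a direction. The titles supplied the groups. A second field, on treatment, gives a let-7a-5p mimic throughout and was not used, and another calls the line lymphocyte-like. All 8 monocyte and macrophage markers were above background on every array, and their summed level was 18.58 with miR-151a-3p against 18.55 to 18.60 on the others. Background was taken as 5.39, below which 95% of the values of 349 olfactory receptor probe sets fell. Of the markers of other cells, the T cell gene CD3E reached 5.80 to 6.09 and the fibroblast gene COL1A2 8.68 to 9.29, whereas 0 of 4 epithelial markers exceeded background on any array. The B cell gene CD79A, itself a member, was at 6.68 to 7.68, and with it the summed level of 2 B cell markers was 6.92 with miR-151a-3p against 7.32 to 7.81.

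A miRNA guides Argonaute proteins to mRNAs, mostly by pairing of its seed, the stretch near its 5′ end, with a matching site in the 3′ untranslated region. The bound mRNA is translated less and is often degraded, so direct targets tend to be lower in RNA when a mimic is added, together with the genes that depend on them. miR-151a is encoded in an intron of PTK2, the gene of focal adhesion kinase, and is best known from work on the migration of tumour cells.

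The comparison turns on arrays that received mimics of other sequence. The RefSeq annotation used here (GRCh38.p14) holds 3 of those mature miRNAs. They are shown because a member had to lie at least 0.4 higher with each of them than with miR-151a-3p. Capitals mark the seed, bases 2 to 8, and the 3 seeds differ from one another. miR-130a-3p and miR-151a-3p are named only.
let-7d-3p: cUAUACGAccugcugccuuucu
let-7e-5p: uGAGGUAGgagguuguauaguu
miR-146a-5p: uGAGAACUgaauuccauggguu

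The same rule was applied to each array in turn. With let-7d-3p it found 166 genes low only on that array (1.83% of 9079), which was more than the 124 of miR-151a-3p. With let-7e-5p there were 77 (0.873% of 8819) and with miR-130a-3p 74 (0.832% of 8899). Mimic NC had 48 (0.549% of 8749) and miR-146a-5p 41 (0.465% of 8812). The control array thus had a set of its own, although its duplex is meant to have no target. The order of the top places was not stable. After a second quantile normalization miR-151a-3p had 145 low-only genes and let-7d-3p 131, and after removal of a trend on level 152 and 130.

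Turned the other way, with the array at least 0.4 above the highest of the others, the rule found 114 genes with miR-151a-3p (1.26%). Those 114 genes made the number low with miR-151a-3p 52.1% of all genes set apart on that array, and the share depended on the scaling. It was 66.2% after quantile normalization (145 low and 74 high), 67.3% after removal of the trend (152 and 74), 56.4% after median subtraction (133 and 103) and 48.4% with a pseudocount of 32 (93 and 99), where the high genes were the more numerous. The other arrays had 73 high-only genes with miR-130a-3p (0.82%), 60 with let-7d-3p (0.661%), 47 with miR-146a-5p (0.533%), 26 with let-7e-5p (0.295%) and 22 with mimic NC (0.251%). SLC19A1, the reduced folate carrier, led the genes high only with miR-151a-3p, at 9.98 against 8.47 to 8.97. As deposited, miR-151a-3p was the array with the most high-only genes, whereas after quantile normalization let-7d-3p had 83 and miR-151a-3p 74.

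**Figure D1:**
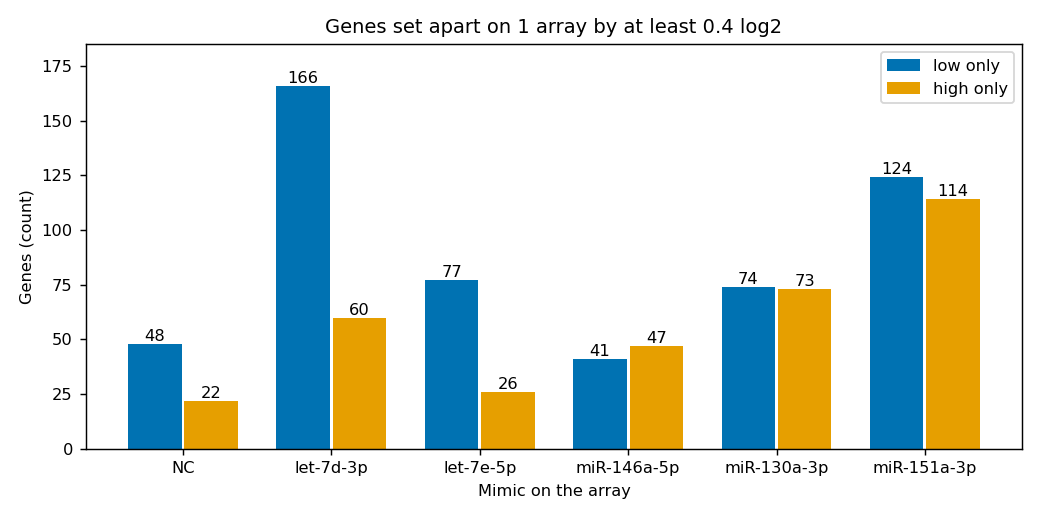
Number of genes (vertical axis, count) that stood at least 0.4 log2 below (blue) or above (orange) all other 5 arrays, for the array of each mimic (horizontal axis). miR-151a-3p had 124 low and 114 high genes and let-7d-3p 166 and 60, while mimic NC had 48 and 22.

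The gaps were small for most members. Their median was 0.51, 74 genes had a gap of 0.5 or more, 40 of 0.6 or more, 10 of 0.8 or more and 3 of 1.0 or more. With the 3 members that were not above background with miR-151a-3p set to the background, 9 reached 0.8 and 2 reached 1.0, and the counts at 0.5 and 0.6 did not change. For 88 of the 124 the gap was larger than the whole range of the other 5 arrays, whose median was 0.41. Over all 9063 probe sets that met the conditions on level and range, 238 had such a gap. The rule sets a least gap and a largest range, so the share among members is partly built in. Against mimic NC alone, the 121 members that stayed above background were lower by 1.33-fold to 2.66-fold, with a median of 1.61-fold, and 16 of all 124 were lower by 2-fold or more. With each tie credited to a single array, miR-146a-5p was the next lowest for 32 members and mimic NC and miR-130a-3p for 27 each. For let-7d-3p and let-7e-5p the count was 19 each. No tie was credited to miR-130a-3p, although it shared the next lowest place in ARPP21, CALCA, HMHB1, PDE3B, PITPNA and SLC4A7. The order of the leading counts therefore depends on how ties are handled, and no single other mimic stood next to miR-151a-3p.

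Members had lower signals than the genes they were drawn from. The median level on the other 5 arrays was 8.10 for members and 10.15 for the 9063 probe sets, and 60 members lay between 6 and 8, 25 between 8 and 10 and 39 at 10 or more. Between 6 and 8 there were 60 low and 57 high calls of 1857, but 34 and 51 with a pseudocount of 32 and 60 and 46 after removal of the trend. Among the brightest, at 12 or more, there were 18 low and 1 high of 2211. Bright genes leaned the same way on the other arrays, with 12 low and 4 high for let-7e-5p, 9 and 3 for miR-130a-3p, 8 and 0 for let-7d-3p, 7 and 0 for mimic NC and 5 and 1 for miR-146a-5p. The 18 bright members of miR-151a-3p became 23 after quantile normalization, 20 after median subtraction and 20 after removal of the trend.

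**Figure D2:**
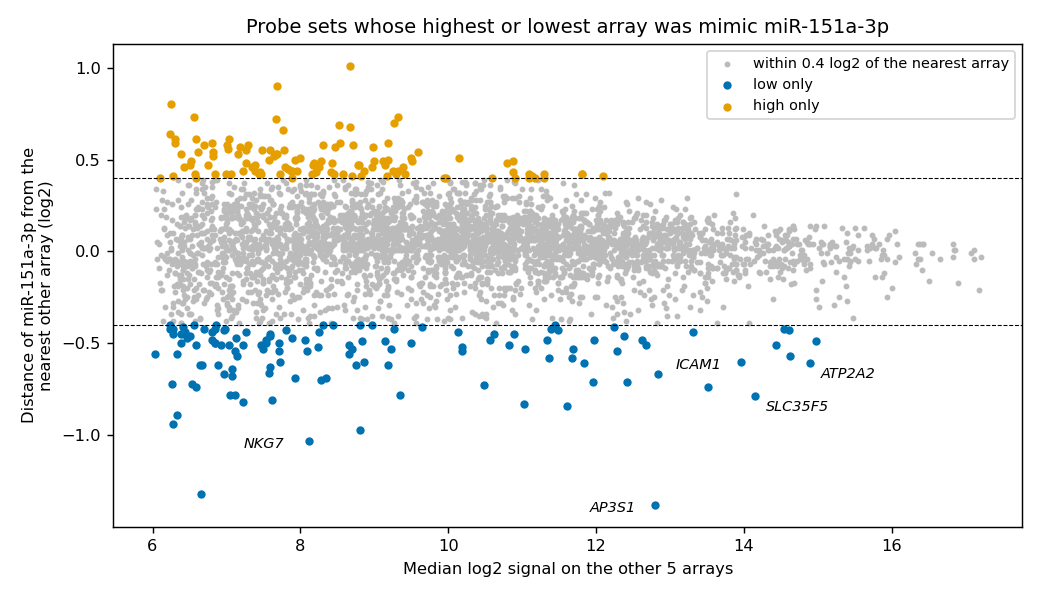
Distance of the miR-151a-3p array from the nearest other array (vertical axis, log2) against the median log2 signal of the other 5 arrays (horizontal axis), for probe sets at which miR-151a-3p was the lowest (below 0) or the highest (above 0) array. The 124 low-only genes are blue and the 114 high-only genes orange, and dashed lines mark 0.4; past a level of 12 there are 18 blue points and 1 orange point.

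AP3S1 had the largest measured gap of all members. It encodes the small sigma subunit of AP-3, the adaptor protein complex that sorts cargo from endosomes to lysosomes and related organelles. Its level was 11.39 with miR-151a-3p, against 12.80 with mimic NC, 12.81 with miR-130a-3p, 12.77 with miR-146a-5p, 12.92 with let-7d-3p and 12.78 with let-7e-5p. The other 5 arrays lay within 0.15 of each other, and the miR-151a-3p array lay 1.38 below them, or 2.66-fold below mimic NC. The other subunits of the same complex did not go with it. AP3B1, the beta subunit, was highest with miR-151a-3p, at 11.98 against 11.60 to 11.90, and AP3D1 at 12.40, AP3M1 at 13.97 and AP3M2 at 10.40 were all above the median of the others. Of 23 adaptor complex genes at 6 or more, 2 were lowest with miR-151a-3p (AP3S1 and AP1S2, the latter by 0.04), beside 14.9% of all 10103 probe sets at that level. After quantile normalization 4 of 23 were, beside 1838 of 10103, and after removal of the trend 4 of 23, beside 1890. The median of those 23 genes was 0.14 above the other arrays, against 0.04 for all probe sets.

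Machinery that works beside AP-3 in making lysosome-related organelles held no member. Of 16 genes of the BLOC-1, Hermansky-Pudlak and HOPS complexes at 6 or more, 3 were lowest with miR-151a-3p, with gaps of 0.03 to 0.07. The lowest of the list against the median of the others was BLOC1S5 (-0.38) and the highest BLOC1S4 (0.80), and the list's median of 0.01 turned to -0.04 after quantile normalization. AP3S1 was thus the only member among the genes of both lists.

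Roles were given to members only, so no share over all probe sets can be set beside the count of a role. Of the members, 94 were given a role and 30 were not. Vesicle traffic held 10, with a median gap of 0.50. RAB18, a small GTPase of lipid droplets and the endoplasmic reticulum, was at 11.93 with miR-151a-3p against 12.44 to 12.76. SEC63, which helps proteins through the translocon of the endoplasmic reticulum, was at 13.92 against 14.34 to 14.80. PITPNA, which carries phosphatidylinositol between membranes, was at 10.75, while the other arrays lay between 11.33 and 11.40. That range of 0.07 was the narrowest of any member, and the gap was 0.58. The rule limits both values, and a range over arrays of different mimics is not a replicate error. Setting the gap beside the range is therefore a description only. VPS37D of the ESCRT-I complex was at 7.11 against 7.80 to 8.21.

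Transporters and ion pumps gave 8 members, 6 of them at a level of 10 or more. SLC35F5, a multipass protein of the nucleotide sugar transporter family, was at 13.09 with miR-151a-3p, against 14.30 with mimic NC, 14.00 with miR-130a-3p, 13.88 with miR-146a-5p, 14.33 with let-7d-3p and 14.15 with let-7e-5p. It was 2.31-fold below mimic NC. ATP2A2 encodes SERCA2, the pump that returns calcium to the endoplasmic reticulum. Its level was 14.18 with miR-151a-3p and 14.89, 14.93, 14.79, 14.82 and 14.89 on the other arrays, in the same order. The 5 others did not spread by more than 0.14, and the gap was 0.61. ATP2C1, the calcium and manganese pump of the Golgi, was at 11.07 against 11.60 to 11.79. Of the remaining calcium pumps at 6 or more, 0 of 4 were lowest with miR-151a-3p, and ATP2C2, under background on all arrays, was at 4.14 against 4.34 to 5.09. ATP2A3, the SERCA3 pump, was highest with miR-151a-3p (9.85 against 8.94 to 9.41), as was ATP2B4 of the plasma membrane (12.07 against 11.56 to 11.93), and the 6 pumps at 6 or more had a median of 0.05.

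SLC39A10, a zinc importer also called ZIP10, was at 11.19 with miR-151a-3p and at 11.80, 11.88, 11.84, 11.87 and 11.84 on the other arrays in the order used above. It was the only one of 12 zinc importers at 6 or more that was lowest with miR-151a-3p. SLC39A13 and SLC39A1 were highest in the list, 0.37 and 0.33 above the median of the others, and the second lowest was SLC39A5 (-0.30). A related importer, SLC39A6, was the leading low-only gene of let-7d-3p, at 9.64 against 11.01 to 11.21, and stood at 11.21 with miR-151a-3p. SLC4A7, a sodium bicarbonate cotransporter, was at 14.09 against 14.52 to 14.83, and NIPAL2 of the NIPA family was at 11.18 against 11.89 to 12.11.

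Metallothioneins are small cysteine-rich proteins that bind zinc and copper and are induced by metal through the factor MTF1. Most of them were at their lowest with miR-151a-3p, some by little. Of 9 at 6 or more, 8 were lowest on that array, beside the 14.9% of all probe sets, and 3 were members. Their median against the other arrays was -0.57, and stayed between -0.60 and -0.44 under the 4 other scalings, with 8 of 9 lowest in each. The gap was only 0.08 in MT1F, 0.14 in MT1M and 0.20 in MT1H. Against mimic NC alone the difference ran from -0.08 in MT1F, -0.09 in MT3 and -0.14 in MT1M to -0.65 in MT1H. The genes are near-identical copies, so that signal of one can reach the probes of another, and they do not count as separate observations. The list was chosen with the family's values in these arrays already known.

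MT1G was at 10.63 with miR-151a-3p, against 11.26 with mimic NC, 11.11 with miR-130a-3p, 11.33 with miR-146a-5p, 11.45 with let-7d-3p and 11.47 with let-7e-5p. MT1B was at 11.95, against 12.43, 12.51, 12.99, 12.62 and 13.04 in that order. MT1X was at 10.82, against 11.24, 11.39, 11.63, 11.25 and 11.83. In MT1B and MT1X the control was the lowest of the others and let-7e-5p the highest, so that the distance to mimic NC (0.48 and 0.42) was smaller than that to the median of the other arrays (0.67 and 0.57). MT2A, a further copy, met the gap at exactly 0.40 (13.29 against 13.69 to 14.57) but was left out because the others spread by 0.88. MT3, the form known from brain, was at 6.59 and inside the range of the others, 6.18 to 6.68.

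Upstream of MT1B and MT1X, RefSeq (GRCh38.p14) gives the 150 bases before the start, both on the plus strand, at chr16:56651736-56651885 and chr16:56682320-56682469. They are shown because both of these nearby genes were members and belong to a family with a known metal-responsive promoter. Capitals mark the core of the metal response element, searched as TGCACNC or TGCGCNC on both strands.
MT1B: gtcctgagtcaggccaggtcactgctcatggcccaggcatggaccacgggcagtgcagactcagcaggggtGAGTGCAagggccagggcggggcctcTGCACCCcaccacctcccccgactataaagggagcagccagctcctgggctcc
MT1X: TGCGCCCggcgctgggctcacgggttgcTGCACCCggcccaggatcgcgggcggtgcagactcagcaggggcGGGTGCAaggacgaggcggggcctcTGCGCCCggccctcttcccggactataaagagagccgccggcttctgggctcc
In windows of 300 bases, 250 of them before the start, MT1B held 3 matches and MT1X 4. All 5 metallothioneins with a window held 3 or more, so the number was not particular to the members. Of all 35116 windows 29.6% held at least 1 match and 2.3% held 3 or more. Over the whole set of members the motif was no mark. At least 1 match was present for 47 of the 96 members with a window (49.0%), beside 45.9% of the 7604 probe sets that met the conditions on level and range and have one, and 3 or more for 4 members (4.17%, beside 4.31%): MT1B, MT1X, ATP2C1 and CFAP410. A match of these letters does not show that a factor binds.

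Genes reported elsewhere as targets of miR-151a-3p could be read for 4 genes. ATP2A2, described above, and IL12RB2 were members. IL12RB2, the signalling chain of the interleukin-12 receptor, was at 9.95 with miR-151a-3p, against 10.56 with mimic NC, 10.40 with miR-130a-3p, 10.90 with miR-146a-5p, 10.62 with let-7d-3p and 10.78 with let-7e-5p, a gap of 0.45. The paper states that the miR-151a-3p mimic did not regulate genes related to interleukin-12. Its lists held genes raised beyond a larger fold change, whereas IL12RB2 here was 1.53-fold below mimic NC on 1 array. TWIST1, a transcription factor of epithelial to mesenchymal transition, was also the lowest with miR-151a-3p (7.61 against 7.86 to 8.06), but by 0.25 only. STAT3 was at 12.10, inside the range of 11.92 to 12.30. In all, 3 of the 4 were lowest with miR-151a-3p and 2 were members, beside 14.9% and 1.37% over all probe sets, and their median against the other arrays was -0.52. The list was chosen with earlier results of these data known, so its shares measure no excess. Of the partners of IL12RB2, IL12RB1, TYK2 and JAK2 were at 6.61, 11.68 and 11.02 and inside the range of the other arrays. STAT4, the factor that signals from this receptor, was lowest with miR-151a-3p (4.97 against 5.29 to 5.91) but lay around or under background and so below the level the rule asks. PTK2, the host gene of miR-151a, was lowest with miR-151a-3p at 9.02 against 9.23 to 9.57, a gap of 0.21.

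**Figure D3:**
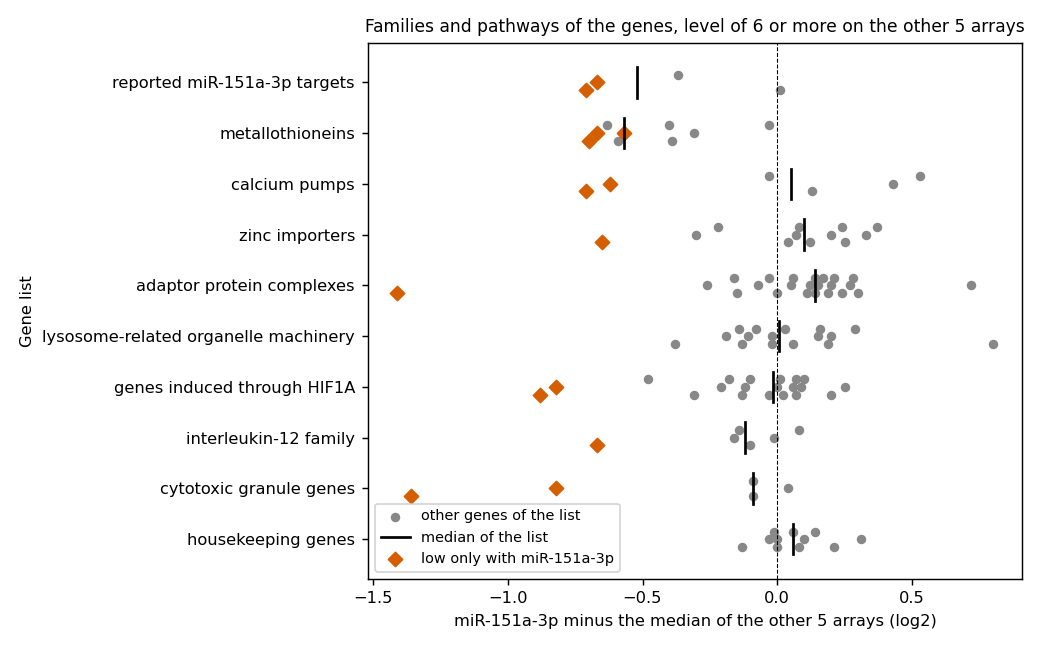
Difference between the miR-151a-3p array and the median of the other 5 arrays (horizontal axis, log2) for genes of 10 lists (vertical axis) with a level of 6 or more. Orange diamonds are low-only members, grey points other genes of the list and black bars list medians; the metallothioneins lie at a median of -0.57 and the housekeeping genes at 0.06, while in the adaptor complexes AP3S1 alone lies far to the left.

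The transcription factor HIF1A, which drives the response to low oxygen and glycolysis in activated macrophages, was at 13.90 with miR-151a-3p. It was at 14.43 with mimic NC, 14.49 with miR-130a-3p, 14.49 with miR-146a-5p, 14.41 with let-7d-3p and 14.44 with let-7e-5p. The others lay within 0.08, against a gap of 0.51. A list of genes known to be induced through HIF1A was added after the members were seen, so its shares measure no excess. Of its 20 genes at 6 or more, 5 were lowest with miR-151a-3p and 2 were members, beside 14.9% and 1.37% over all probe sets. The list median was -0.01 against 0.04. PGAM1, a phosphoglycerate mutase of glycolysis, was at 13.74 against 14.31 to 14.69, and ALDOC, an aldolase, at 5.71 against 6.43 to 6.67. P4HA1 (0.25) and NDRG1 (0.20) were highest in the list, and ENO1, LDHA and SLC2A1 were within 0.07 of the median of the other arrays. PGAM1 belongs to a family with many processed copies in the genome, whose signal may add to its own.

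The role of transcription factors and zinc finger proteins held 14 members with HIF1A. AFF4, the scaffold of the super elongation complex, was at 11.56 against 12.27 to 12.49, and CREB3, a factor bound to the endoplasmic reticulum, was at 10.91 against 11.31 to 11.70. ZBTB16, also called PLZF, was at 6.29 against 6.80 to 7.38. A further 8 were zinc finger genes of the ZNF series, such as ZNF681 (6.54 against 7.08 to 7.28) and ZNF382 (7.25 against 7.72 to 8.08), whose gaps ran from 0.40 to 0.56.

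Metabolic enzymes numbered 13, with 3 at a level of 10 or more. PDK4, the kinase that switches off pyruvate dehydrogenase, was at 6.69 with miR-151a-3p, against 7.60 with mimic NC, 7.50 with miR-130a-3p, 7.69 with miR-146a-5p, 7.84 with let-7d-3p and 7.62 with let-7e-5p. DBT, the core subunit of the branched-chain ketoacid dehydrogenase, was at 8.49, with the others between 9.27 and 9.40. In both, every other array was at least 0.78 higher. PDE3B, which breaks down cyclic AMP, was at 9.67 against 10.40 to 10.68. CTH, the cystathionine lyase that makes cysteine, was at 5.45 against 6.17 to 6.86, close to background. RRM2, a subunit of ribonucleotide reductase, was at 10.29 against 10.80 to 11.16.

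Genes of protein folding, modification and turnover gave 13 members, 8 of them at 10 or more. TMX1, a thioredoxin-like protein of the endoplasmic reticulum membrane, was at 12.63 with miR-151a-3p, against 13.45 with mimic NC, 13.78 with miR-130a-3p, 13.37 with miR-146a-5p, 13.51 with let-7d-3p and 13.85 with let-7e-5p. RCN1, a calcium-binding protein of the same compartment, was at 12.68 against 13.12 to 13.57, and ERLIN1, which helps to degrade the inositol trisphosphate receptor, at 9.58 against 10.10 to 10.29. With ATP2A2 and SEC63, these were 5 bright or moderately bright members of the endoplasmic reticulum, a grouping made after their values were seen. UBE2V1, a partner of the ubiquitin conjugating enzyme UBE2N, was at 14.38 against 14.87 to 15.17. The readthrough transcript PEDS1-UBE2V1, which holds the same sequence, was at 13.55 against 13.94 to 14.14 and fell just short of the limit with a gap of 0.39, so those probe sets are not independent. HS3ST1, a sulfotransferase of heparan sulfate, was at 6.10 against 6.88 to 7.16.

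Immune receptors, adhesion molecules and secreted proteins formed the largest of the roles given, with 17 members, fewer than the 30 members without a role. ICAM1, the ligand through which leukocyte integrins adhere, was at 13.31 with miR-151a-3p, against 13.94 with mimic NC, 13.96 with miR-130a-3p, 14.24 with miR-146a-5p, 13.91 with let-7d-3p and 14.23 with let-7e-5p. FYB1, an adaptor that links immune receptors to integrins, was at 12.04 against 12.71 to 13.02. PLAU, the urokinase plasminogen activator, was at 11.62 against 12.03 to 12.53 and HBEGF, a growth factor of the EGF family, at 10.85 against 11.28 to 11.73. These 4 were all at a level of 10 or more. IL10RA, the ligand-binding chain of the interleukin-10 receptor, was at 9.51 against 9.95 to 10.63, and S1PR1, a receptor of sphingosine 1-phosphate, was at 10.12 against 10.65 to 11.28. For those receptors the others spread by 0.68 and 0.63, more than the gaps of 0.44 and 0.53. CRLF2, the receptor chain for thymic stromal lymphopoietin, was at 6.19 against 6.83 to 7.18, and FFAR1, a receptor of free fatty acids, at 6.74 against 7.37 to 7.93.

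NKG7, a membrane protein of cytotoxic granules, had a gap of 1.03. Its level was 6.75 with miR-151a-3p, against 8.11 with mimic NC, 7.78 with miR-130a-3p, 8.13 with miR-146a-5p, 8.34 with let-7d-3p and 7.90 with let-7e-5p, or 2.57-fold below mimic NC. GZMB, the granule protease granzyme B, was at 6.99, against 8.07, 7.53, 7.42, 8.10 and 7.81 in that order. The others spread by 0.68 in GZMB, with miR-146a-5p and miR-130a-3p nearest to miR-151a-3p. The list of 10 cytotoxic granule genes was added after NKG7 and GZMB were seen to be members, so its shares measure no excess. Of the 10, 5 were at 6 or more, and 2 of them were lowest and members, beside 14.9% and 1.37% over all probe sets. The other 3 of those 5, GNLY (9.81), CTSW (9.92) and SRGN (14.95), were within 0.09 of the median of the others. Of 4 T cell markers, CD3E was at 5.80 to 6.09, and CD3D, CD3G and CD2 reached at most 5.55 on any array. The summed level of the 4 was 7.03 with miR-151a-3p against 6.60 to 6.97 on the others, so it did not fall with NKG7. All 4 lay around or under background, and whether NKG7 went with T cell signal was not tested. CD79A, a B cell marker, was a member at 6.68 against 7.12 to 7.68. MS4A1 was under background on all arrays (4.20 to 4.53), so it cannot be set against CD79A. CD79B fell just outside the rule, at 5.87 against 6.26 to 6.84, a gap of 0.39.

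SCGB1C1 and SCGB1C2, secretoglobins that are near-identical copies, were both members, at 7.70 against 8.67 to 9.03 and at 7.97 against 8.53 to 8.92. Their probe sets share sequence and count as 1 observation. CALCA, which encodes calcitonin and its related peptide, was at 6.38 against 7.20 to 7.93. Some members lay near each other on a chromosome, and no share over all genes was computed to set beside them. ICAM1 and ICAM5 had 1 other array gene between them, as had PDE3B and CALCA, MT1B and MT1G, and SCGB1C2 and RPH3AL, and 2 lay between GPR153 and ESPN, MT1G and MT1X, and VPS37D and STX1A. Chromosome 11 held 14 members (2.59% of 540 probe sets that met the conditions on level and range), chromosome 5 held 10 (2.38% of 421) and chromosome 15 held 0 of 298, against 1.37% over the whole genome.

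NRBP1, a pseudokinase, was at 10.39 with miR-151a-3p, against 11.37 with mimic NC, 11.23 with miR-130a-3p, 11.61 with miR-146a-5p, 11.71 with let-7d-3p and 11.62 with let-7e-5p. KIAA1191 was at 10.08 against 10.91 to 11.24. Both were well above background on every array. YBEY, an RNA nuclease of mitochondria, was at 7.47 against 8.17 to 8.51, and the mitochondrial ribosomal protein MRPL57 at 8.47 against 9.09 to 9.27. DDX41, an RNA helicase, was at 11.88 against 12.34 to 12.55. The cell cycle gave 3 members, all under a level of 10: CDKN1C, an inhibitor of cyclin-dependent kinases, at 6.24 against 6.91 to 7.45, CCND2 at 5.96 against 6.38 to 7.13 and CENPU, a centromere protein, at 8.01 against 8.63 to 9.23. The remaining genes among the 30 largest gaps were PRR18, CIMIP5, CCDC134, OR52K2 and N4BP3, with gaps of 0.66 to 0.78. OR52K2 is itself an olfactory receptor, a class used here to set the background.

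Some of the largest gaps were among the faintest genes. ARPP21, an RNA-binding phosphoprotein known from neurons, was at 5.0 with miR-151a-3p, against 6.65 with mimic NC, 6.32 with miR-130a-3p, 6.69 with miR-146a-5p, 7.06 with let-7d-3p and 6.32 with let-7e-5p. With TRHDE-AS1 (5.13 against 6.07 to 6.39) and IFT56, a protein of cilium transport (5.33 against 6.22 to 6.50), it was not above background with miR-151a-3p, so only a bound can be given. Taking the background in place of those levels, ARPP21 was at least 1.91-fold lower than the nearest array, IFT56 at least 1.78-fold and TRHDE-AS1 at least 1.60-fold.

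**Figure D4:**
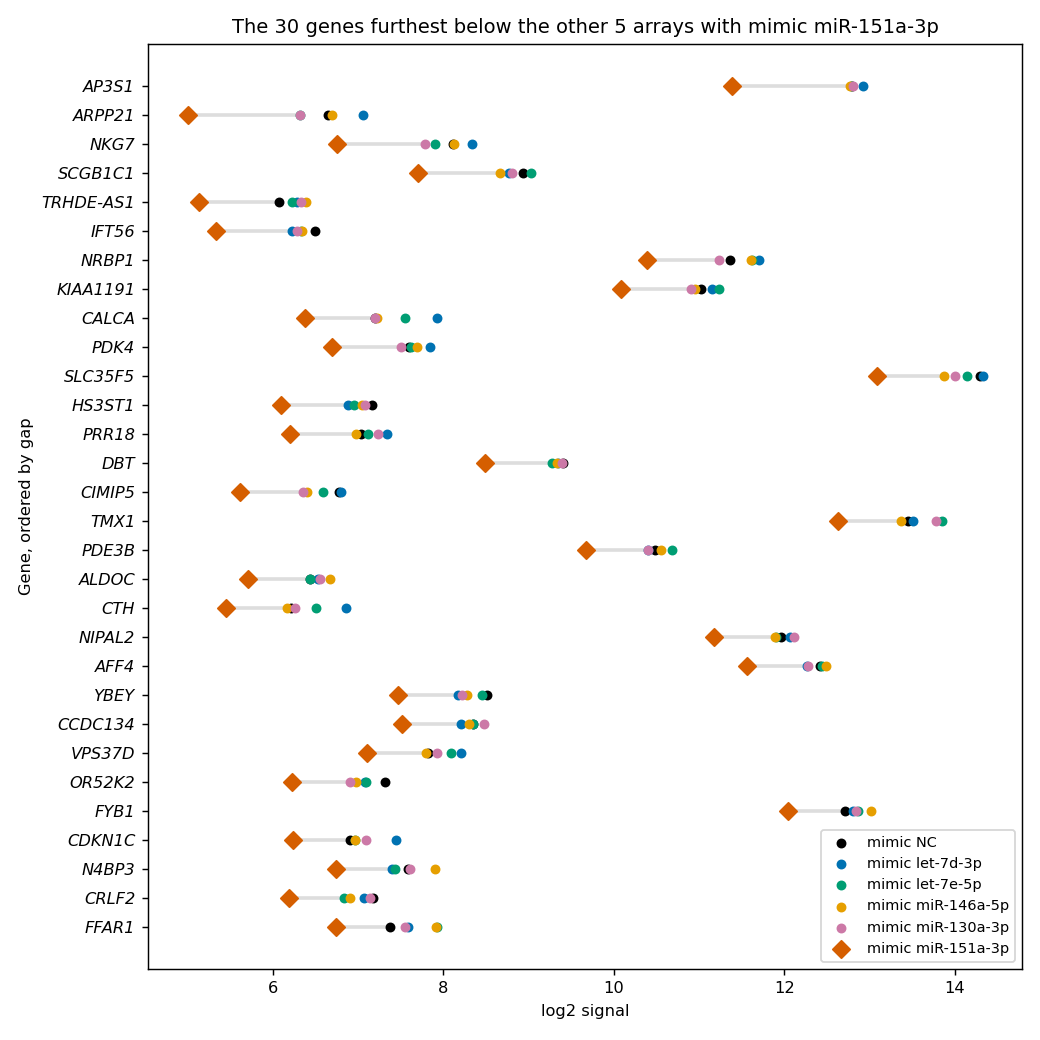
Log2 signal (horizontal axis) of the 30 members with the largest gaps (vertical axis, in order of gap) on each of the 6 arrays, 1 point per array. Orange diamonds are miR-151a-3p and circles the other mimics; grey lines show the gap, which runs from 1.38 in AP3S1 to 0.63 in FFAR1.

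The limit of 0.4 cut through a dense stretch of values. Just inside it, 8 members had a gap of 0.40, among them ZNF555 (8.32 against 8.72 to 8.94), GNGT2 (6.24 against 6.64 to 7.13) and HSPA4L (7.80 against 8.20 to 8.49). Just outside, 13 probe sets had a gap of 0.39, among them PTPN12, a tyrosine phosphatase of adhesion signalling (13.19 against 13.58 to 13.79), UTP23 (12.42 against 12.81 to 12.91) and FGF2 (7.62 against 8.01 to 8.15). A further 19 met the gap and the level but not the range, led by STH (6.55 against 7.56 to 8.42), and 190 met the gap and the range with 1 or more of the other arrays under 6.

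Set beside the leading genes of the other arrays, AP3S1 was of the same order as the largest. The top low-only gene was SLC39A6 for let-7d-3p with a gap of 1.37, PDZD11 for miR-130a-3p with 1.14, RFK for mimic NC with 0.97, FAM220A for let-7e-5p with 0.96 and TIMM17B for miR-146a-5p with 0.88. The median gap of the low-only genes lay between 0.49 and 0.54 on all 6 arrays, and was 0.51 with miR-151a-3p. Between miR-151a-3p and mimic NC, the number of low-only genes differed (124 and 48) while the median gap was alike (0.51 and 0.54), and neither difference could be tested with 1 array each.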

How the data were processed

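The authors deposited 1 table of log2 signals per probe set, made with Transcriptome Analysis Console 4.0 by RMA according to the submitters' processing notes. RMA corrects background, normalizes arrays against each other and summarizes probes. The deposited log2 values have 2 decimals and range from 1.88 to 17.99. It compresses dim differences. Which arrays were normalized together, and on which build probes were mapped, is not given in the sources used here. The labels give Trizol for RNA extraction and the study's methods a column kit, and the meaning of the "2" in the control's title is not stated.

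Of 21448 probe sets, 17709 carry 1 gene symbol, and the other 3739 carry none or more than 1. All Entrez identifiers of the 17709 matched RefSeq (GRCh38.p14). Array medians were 6.92 to 6.95; the number of arrays limits the precision. The rule and counts were computed in Python 3.11.15 with pandas 2.3.3 and numpy 2.4.6. The code of the rule was run on simulated data with larger drops and less scatter than most members had. That run does not tell how the rule performs at the gaps found here. With 1 array per group nothing was tested. The members, lists and roles were chosen with earlier results of these data known, and the lists of calcium pumps, zinc importers, genes induced through HIF1A, the interleukin-12 family and cytotoxic granules were added after the members were seen. Named genes were the 30 with the largest gap, the 3 smallest gaps, the 3 nearest outside, the 2 highest and 2 lowest of each list, PTK2 and the leading genes of other arrays, from which the text takes a selection. Other genes were picked for their role or level after their values were seen. Alternatives were other gaps, levels and ranges, a second quantile normalization, median subtraction, a pseudocount of 32, removal of a lowess trend (span 0.3) across level, all probe sets and leaving out each array.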

Additional observations from a re-analysis of the deposited data

Results flagged for a closer look

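Probe sets with no gene symbol were outside every comparison above. Under the same rule 25 of 1500 that met the conditions on level and range were low only with miR-151a-3p, against 11 of 1463 with mimic NC, 26 of 1514 with let-7d-3p, 15 of 1461 with let-7e-5p, 11 of 1472 with miR-146a-5p and 14 of 1474 with miR-130a-3p. They drew attention because the number was above that of the control array. They are not named here, and the difference was not tested.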

How the results depend on the processing

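No paired analysis was possible because no group had more than 1 array. The count of 124 followed the limits of the rule: it was 242 with a gap of 0.3, 74 with a gap of 0.5, 188 with a level of 5 or more and 39 with a median level of 10 or more, the last chosen after seeing the data. It was 85 at a level of 7 or more, 88 and 139 with a range of at most 0.5 and 1.0, 149 over all probe sets, and between 93 (pseudocount of 32) and 152 (trend removed) under the 4 scalings. Of the 124 members, 112 stayed after quantile normalization, 117 after median subtraction, 118 after removal of the trend, 83 with the pseudocount and 80 under all 4. Leaving out 1 of the other arrays gave 153 to 168, since fewer arrays had to be cleared. All 30 leading gaps stayed at 0.4 or more under the 4 scalings, though ARPP21 and CALCA failed the limits on range or level under some. Dim signal limits the members between 6 and 8 most.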
